A study of Mus musculus with 8 samples.

Results

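The genes described here are those of the respiratory chain and the mitochondrial ATP synthase, as measured in colonic epithelial cells of mice carrying 1 of 2 strains of the gut bacterium Bacteroides thetaiotaomicron (B. theta). They were taken by symbol from the array annotation: probe sets (groups of short probes that read the same transcript) assigned to exactly 1 gene whose symbol starts as those of the Ndufa, Ndufb, Ndufc, Ndufs, Ndufv, Sdha to Sdhd, Uqcr, Cox4i, Cox5, Cox6, Cox7, Cox8 and Atp5 families do, plus Cyc1 and Cycs, without the Ndufaf assembly factors. The rule gave 180 probe sets for 88 genes, out of 18193 genes that have such a probe set on the array, and each gene was represented by its probe set of largest SD over the 8 arrays. Of the 88 genes, 34 belong to complex I, 4 to complex II, 9 to complex III, 1 is the carrier cytochrome c, 19 belong to complex IV or are its isoforms, and 17 belong to the ATP synthase. The other 4, Sdhaf1 to Sdhaf4, match the letters of the rule but encode assembly factors of complex II, and they are kept apart in the text. Both groups were wild-type male C57BL/6 mice, per the study's methods, kept under specific pathogen-free conditions and given metronidazole and ciprofloxacin (SPF-Abx mice), then colonized at 8 wk of age and sampled at 12 wk, 4 wk later. The BTWT group, 4 mice, received wild-type B. theta, and the BTDMAFF group, 4 mice, received the mutant strain. This strain lacks the MAFF genes (mucus-associated functional factors), a pair of homologues of the starch utilization genes SusC and SusD. The study describes their function as uncharacterized. Living cells that carried the epithelial surface protein EpCAM and lacked the leukocyte protein CD45 were sorted from the colon to a purity of 90 to 95%, per the labels, and each mouse gave 1 Affymetrix mouse genome array. The antibiotics remove the hosts' own Bacteroidetes and leave other gut bacteria, so neither group carried B. theta alone. The comparison asks how the epithelial expression of these genes differed between hosts of the wild-type strain and hosts of the mutant.

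Complexes I and II pass electrons from NADH and succinate to ubiquinone, complex III passes them on to cytochrome c, and complex IV hands them to oxygen. The protons pumped on the way drive the ATP synthase, a rotary machine of a catalytic F1 head, a membrane ring and a peripheral stalk that holds the head in place. Colonic epithelial cells are known to rely on oxidation of the bacterial product butyrate for much of their ATP, which keeps oxygen in the gut lumen low. Most subunits are encoded in the nucleus, and their promoters are known to be bound by nuclear respiratory factor 1 (NRF1), by ETS-family factors such as GABP, by CREB at the cAMP response element (CRE), and by YY1.

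The promoters of 4 members are shown because they carry the start sites of the genes whose values the results turn on: Atp5o and Uqcrfs1, the 2 members of smallest p, Cox6a1, whose groups did not overlap, and Cycs, whose probe sets differed in direction. Each line gives the 200 bases before the annotated transcription start, 5′ to 3′, from the RefSeq table of GRCm38.p6. Capitals mark matches to GCATGCGC (NRF1), CCGGAAG (ETS), TGACGTCA (CRE) or AAGATGGC (YY1) on either strand.
Atp5o, chr16:91931631-91931830 (- strand): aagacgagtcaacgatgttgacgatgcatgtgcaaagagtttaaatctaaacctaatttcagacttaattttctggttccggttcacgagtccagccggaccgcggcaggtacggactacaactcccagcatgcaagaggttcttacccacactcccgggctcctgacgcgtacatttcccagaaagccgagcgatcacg
Uqcrfs1, chr13:30545317-30545516 (- strand): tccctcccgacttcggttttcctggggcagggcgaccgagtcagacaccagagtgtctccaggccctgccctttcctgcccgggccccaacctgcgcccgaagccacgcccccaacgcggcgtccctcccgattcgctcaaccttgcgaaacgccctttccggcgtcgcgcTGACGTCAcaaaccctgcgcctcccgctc
Cox6a1, chr5:115348959-115349158 (- strand): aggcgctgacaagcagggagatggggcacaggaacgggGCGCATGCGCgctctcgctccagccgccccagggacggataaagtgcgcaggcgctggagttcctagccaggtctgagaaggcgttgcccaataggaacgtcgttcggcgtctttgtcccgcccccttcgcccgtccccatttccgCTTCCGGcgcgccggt
Cycs, chr6:50566570-50566769 (- strand): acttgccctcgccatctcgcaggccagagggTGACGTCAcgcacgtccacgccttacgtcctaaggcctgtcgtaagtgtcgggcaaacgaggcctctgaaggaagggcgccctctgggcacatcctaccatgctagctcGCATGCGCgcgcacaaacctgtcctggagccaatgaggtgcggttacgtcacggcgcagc
Cox6a1 has NRF1 matches on both strands that overlap each other and 1 ETS match, Uqcrfs1 has a CRE match, Cycs has a CRE and an NRF1 match, and the Atp5o window holds none of these letters. Promoters of 72 of the 88 genes were matched by symbol, and the stretch from 250 bases before to 50 after the start was searched, which reaches past both ends of the printed 200 bases. GCATGCGC stood in 10 of these 72 genes (13.9%) against 3.05% of all 27025 genes in the table and 4.68% of the 14452 that are also on the array. The matching shares for CCGGAAG were 27.8% (20 genes), 9.93% and 15%, for AAGATGGC 12.5% (9 genes), 3.19% and 4.07%, and for TGACGTCA 5.56% (4 genes), 2.03% and 2.92%. In all, 36 of the 72 genes held 1 or more of the motifs. Ndufa12 and Ndufa1, members at an unadjusted limma p under 0.05, held none of them, and their promoters are not printed. The median difference between groups, BTWT minus BTDMAFF on the log2 scale, was 0.15 in the genes with CCGGAAG and 0.15 in those without, 0.10 and 0.15 for GCATGCGC, 0.13 and 0.15 for AAGATGGC, and 0.20 and 0.15 for TGACGTCA. A match of letters is a description and does not show that a factor bound there.

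The deposited values are log2 values from which the median of the 8 arrays was taken for each probe set, so a value of 0 is the middle of the 8 mice and neither the level of a gene nor its detection can be read. For the same reason the presence of epithelial markers, and the absence of others, could not be checked. The mean of 5 pan-epithelial markers lay between -0.095 and 0.12 over the 8 mice and that of 7 leukocyte markers between -0.027 and 0.13. The arrays of BTWT 2 and BTDMAFF 4 stood apart from the other 6 along the main axis of variation among arrays (29.4% of the total), and results are given with and without them. In RNA from a sorted population, fewer cells of a type and less RNA per cell cannot be told apart.

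Most members were slightly higher in the BTWT mice, and no single gene passed the adjusted threshold. Of the 88 genes, 80 (90.9%) had a mean difference above 0 (BTWT minus BTDMAFF, log2), where 66.8% of all 18193 genes did. The median difference was 0.13, against 0.019 over all genes, and single genes ran from -0.49 (Ndufb4) to 0.97 (Cox7c). Below 0 were Ndufa8, Ndufb3, Ndufb4, Ndufs1, Ndufs3, Cox5b, Atp5g2 and the assembly factor Sdhaf2. By limma, 6 members (6.82%) were higher in BTWT at an unadjusted p under 0.05, where 2.35% of all genes were, and 0 were lower, where 3.37% of all genes were. None of the 88 passed a Benjamini-Hochberg adjusted p of 0.05, as none of the 18193 genes did (0%), and the smallest adjusted p among the 88 was 0.528 from limma. The methods' t-test gave 5 members at the unadjusted threshold and 0 after adjustment. In 3 members, Ndufb1, Cox6a1 and Atp5o, every BTWT mouse lay above every BTDMAFF mouse, where 1.30% of all genes were separated in that direction, and 0 members were separated the other way (1.84% of all genes).

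**Figure D1:**
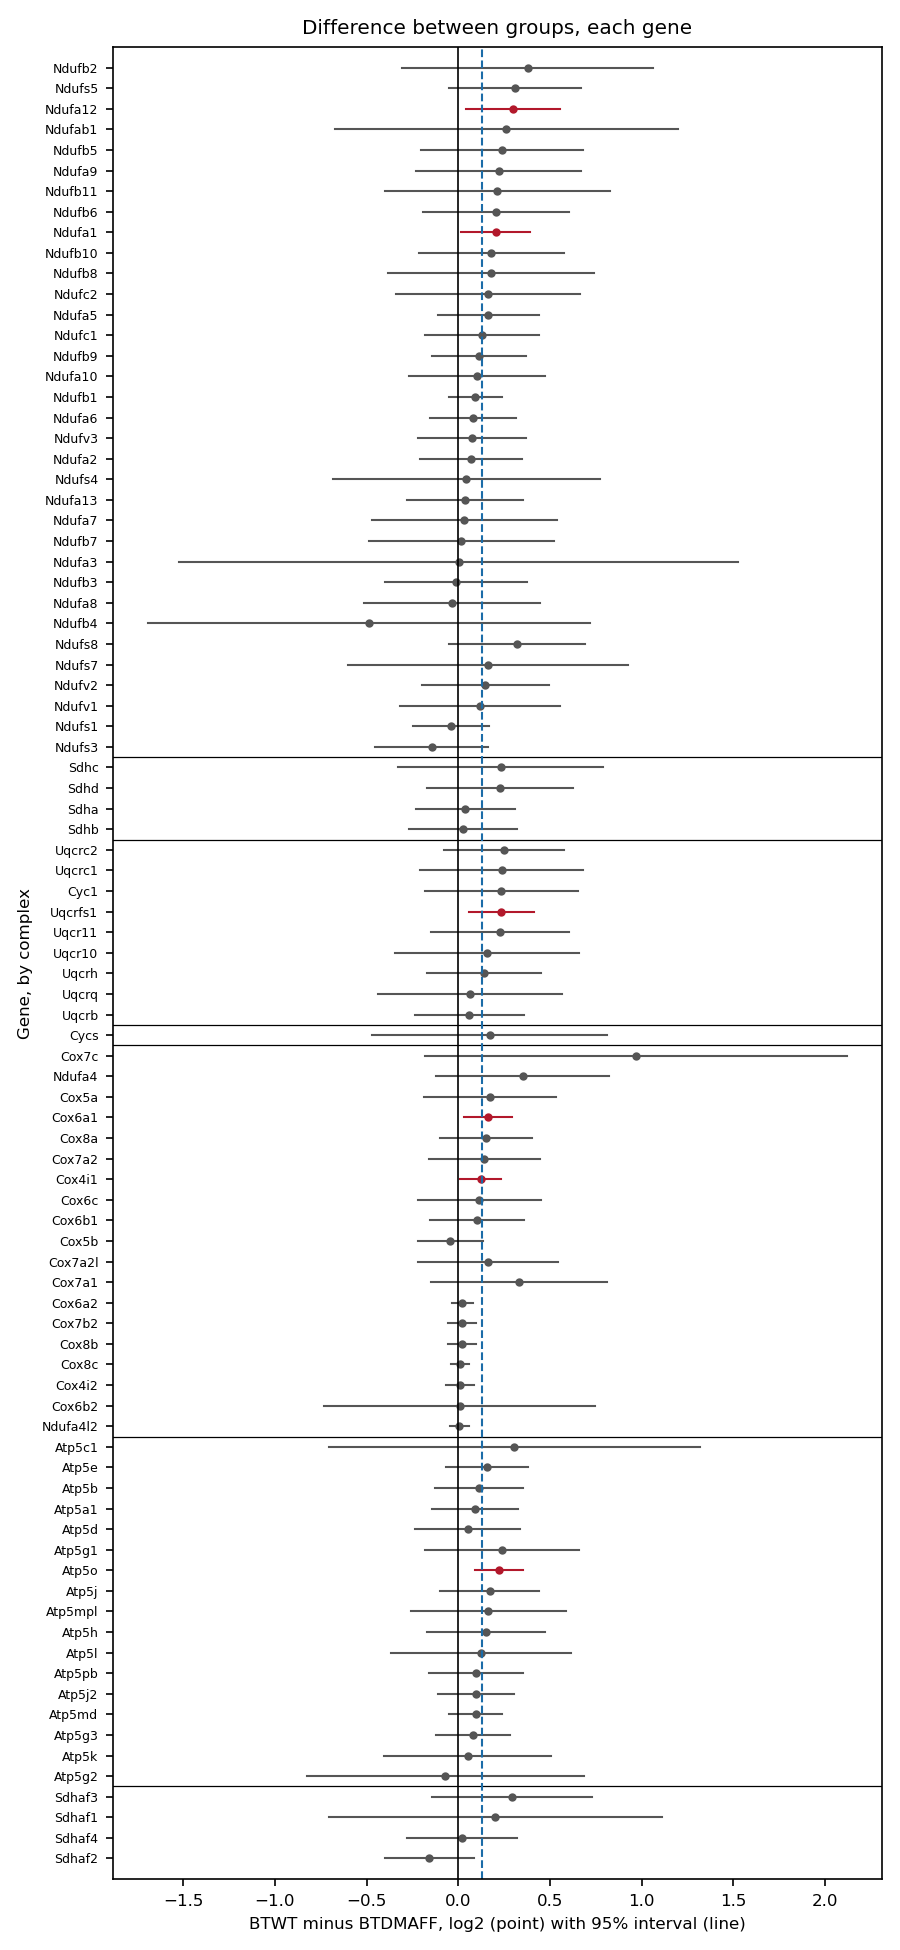
Difference between groups for each of the 88 genes, ordered by complex (horizontal lines part the complexes): the point is the mean of 4 BTWT mice minus the mean of 4 BTDMAFF mice on the log2 scale, the line its 95% interval from limma, red where the unadjusted p is under 0.05 (6 genes). The dashed line is the median of the 88 genes, 0.13, 80 points lie to the right of 0, and the intervals of all but 6 genes cross 0.

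The count of 6 depended on single mice. It was 2 without BTWT 1 (Atp5o and Uqcrfs1), 3 without BTWT 3, without BTDMAFF 3 or without BTDMAFF 4 (in each case Atp5o, Cox6a1 and Uqcrfs1), and 16 without BTDMAFF 1. Without both arrays that stood apart it was 4 (Atp5o, Ndufa1, Ndufa12 and Ndufa2), with a median difference of 0.14 over the 88 genes. The median difference stayed between 0.076 and 0.20 when each array was left out in turn.

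Averaged over the 88 genes, the centred log2 values were 0.24, -0.14, 0.15 and 0.00070 in BTWT mice 1 to 4 and 0.10, -0.049, -0.13 and -0.20 in BTDMAFF mice 1 to 4, with a BTWT mean of 0.062 ± 0.17 (SD, n = 4 mice) and a BTDMAFF mean of -0.069 ± 0.13 (SD, n = 4 mice). The groups overlapped: BTWT 2 lay below 3 of the BTDMAFF mice, and BTDMAFF 1 lay above BTWT 2 and BTWT 4. Mice of 1 group thus differed from each other by more than the group means did. BTWT 1 had the highest of the 8 values in 38 of the 88 genes (43.2%), where it had the highest in 9.78% of all genes, and BTWT 3 had the highest in 19 (21.6%, against 6.53% of all genes). Neither of these mice had the lowest value in any member. At the other end, BTDMAFF 4 had the lowest value in 35 members (39.8%, against 11.5% of all genes) and BTDMAFF 3 in 28 (31.8%), less than its share of 42.4% over all genes. In the 2 arrays that stood apart the members went the opposite way from most genes, with 61 of 88 (69.3%) below 0 in both, where 23.8% of all genes were below 0 and 55.9% above 0 in both. RNA quality was followed by the Gapdh controls, as the signal at the 3-prime end less that at the 5-prime end, which was -0.20, -0.25, -0.0072 and 0.018 in BTWT mice 1 to 4 and -0.080, 0.17, 0.11 and -0.18 in BTDMAFF mice 1 to 4 on the same centred scale. The lowest 3 values were thus those of BTWT 1, which held the highest value of 38 members, and of BTWT 2 and BTDMAFF 4, where 61 members were below 0. The same measure from the beta-actin controls did not set these arrays apart: it was -0.024, -0.043, -0.062 and -0.017 in BTWT mice 1 to 4 and -0.035, 0.083, 0.035 and 0.055 in BTDMAFF mice 1 to 4, lowest in BTWT 3. It largely followed the groups instead: all BTWT mice and BTDMAFF 1 were below 0, and BTDMAFF 2, 3 and 4 were above 0. The part of RNA quality in the members' values was not tested.

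**Figure D2:**
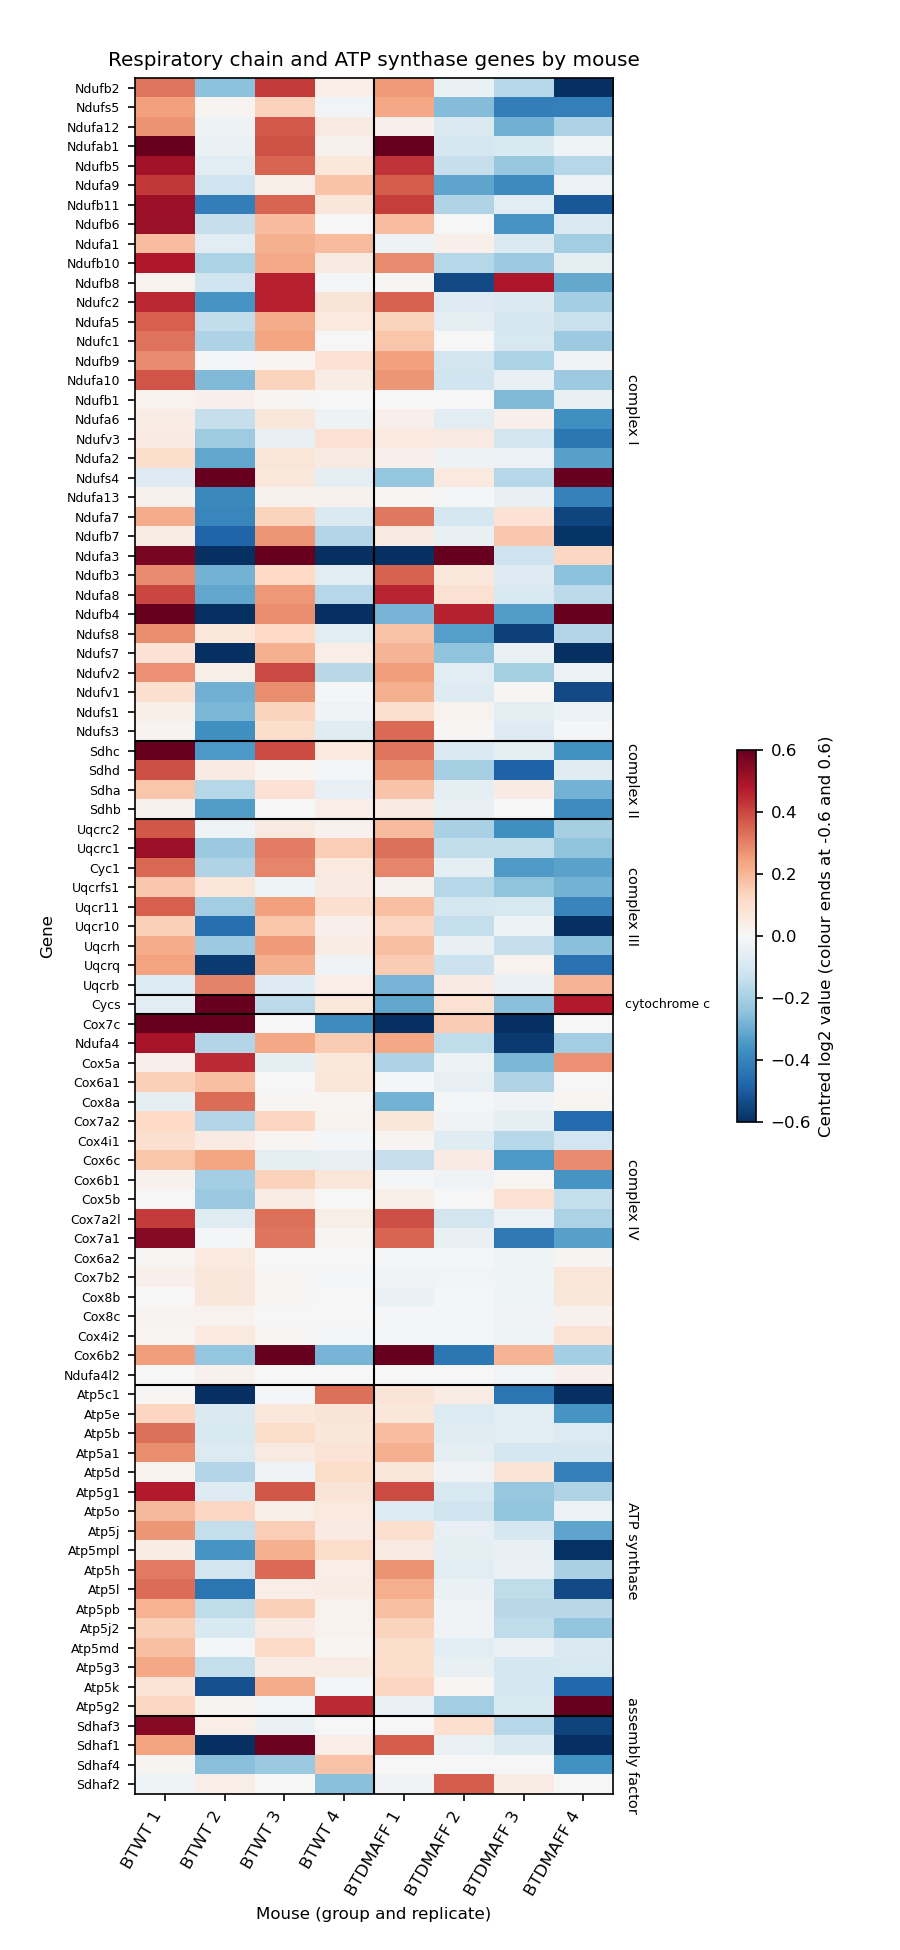
Centred log2 value of each gene (rows, by complex) in each mouse (columns), red above and blue below the middle of the 8 mice, with the colour scale ending at -0.6 and 0.6. BTWT 1 has the highest value in 38 genes and BTDMAFF 4 the lowest in 35, and 61 genes are below 0 in both BTWT 2 and BTDMAFF 4.

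Complex I was represented by 34 genes, of which 29 had a difference above 0 (85.3%, against 66.8% of all genes), with a median of 0.13. The mean over these genes came to 0.057 ± 0.25 (SD, n = 4 mice) for BTWT and -0.056 ± 0.15 (SD, n = 4 mice) for BTDMAFF. Its core subunits carry the flavin and the iron-sulfur clusters that take electrons from NADH to ubiquinone. Of the 6 core genes measured, 4 had a difference above 0 (66.7%, against 66.8% of all genes). None was past the unadjusted threshold in either direction, where 2.35% of all genes were higher and 3.37% lower. Ndufs8, an iron-sulfur subunit, read 0.28, 0.063, 0.12 and -0.063 in BTWT mice 1 to 4 and 0.17, -0.33, -0.56 and -0.18 in BTDMAFF mice 1 to 4. Its BTWT mice were above BTDMAFF 2, 3 and 4, while BTDMAFF 1 lay above 3 of them, and the difference was 0.32 (SE 0.16, limma adjusted p = 0.828). All 5 other probe sets of the gene went the same way. Ndufs7, which holds the last cluster before ubiquinone, read 0.085, -0.78, 0.21 and 0.038 in BTWT mice 1 to 4 and 0.21, -0.24, -0.038 and -1.02 in BTDMAFF mice 1 to 4. Its 2 lowest values are those of the 2 arrays that stood apart, and the difference of 0.16 was well within the spread (95% interval -0.60 to 0.93). Ndufv1, which binds NADH and the flavin, and Ndufv2, its iron-sulfur partner, had differences of 0.12 (SE 0.18) and 0.15 (SE 0.15). The large iron-sulfur subunit Ndufs1 and the neighbouring core subunit Ndufs3 had differences below 0, -0.038 (95% interval -0.25 to 0.17) and -0.15 (-0.45 to 0.16).

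The accessory subunits of complex I surround the core and are needed for its assembly and stability. Of these 28, 25 had a difference above 0 (89.3%, against 66.8% of all genes). At the unadjusted threshold 2 were higher (7.14%, against 2.35% of all genes) and 0 lower (3.37% of all genes). Ndufa12 read 0.27, -0.032, 0.37 and 0.056 in BTWT mice 1 to 4 and 0.032, -0.089, -0.29 and -0.18 in BTDMAFF mice 1 to 4. All BTWT mice but BTWT 2 lay above the highest BTDMAFF mouse, and the difference was 0.30 (SE 0.11, limma adjusted p = 0.828). Its 3 other probe sets had differences of 0.31, 0.19 and 0.027, and only the first of them passed the unadjusted threshold. The probe set used stayed past it in 4 of 8 fits that left out 1 array (not without BTWT 1, BTWT 3, BTDMAFF 3 or BTDMAFF 4) and in the fit without both arrays that stood apart. Ndufa1, a small X-linked membrane subunit, read 0.19, -0.069, 0.21 and 0.19 in BTWT mice 1 to 4 and -0.029, 0.029, -0.088 and -0.21 in BTDMAFF mice 1 to 4. BTWT 1, 3 and 4 stood together above the BTDMAFF mice and BTWT 2 stood among them, with a difference of 0.20 (SE 0.080, limma adjusted p = 0.828). It kept that call in 2 of the 8 fits that left out 1 array (those without BTWT 2 or BTDMAFF 2), and without both arrays that stood apart. Ndufs5, an accessory subunit at the intermembrane side, came next with 0.31 (SE 0.15, limma adjusted p = 0.828). Ndufb1 was separated between groups, but by a gap between 0.0014 in BTWT 4 and -0.0014 in BTDMAFF 1, and most of its difference of 0.092 came from the value of -0.26 in BTDMAFF 3. The widest spreads of the whole set were those of Ndufa3 (SD over the 8 arrays 0.91) and Cox7c (0.86), against a median SD of 0.22 over the members and 0.20 over all genes.

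Complex II, succinate dehydrogenase, is shared between the respiratory chain and the tricarboxylic acid (TCA) cycle. All 4 of its subunits had a difference above 0, where 66.8% of all genes did. The unadjusted threshold was passed by 0 of them (smallest limma adjusted p = 0.828), where 2.35% of all genes were higher and 3.37% lower. Sdhc, a membrane anchor, read 0.64, -0.34, 0.39 and 0.057 in BTWT mice 1 to 4 and 0.32, -0.087, -0.057 and -0.36 in BTDMAFF mice 1 to 4. The other anchor, Sdhd, read 0.39, 0.050, 0.012 and -0.012 in BTWT mice 1 to 4 and 0.27, -0.20, -0.48 and -0.073 in BTDMAFF mice 1 to 4. In both genes BTWT 1 was the highest mouse and the groups overlapped, with differences of 0.23 (SE 0.24) and 0.23 (SE 0.17). The catalytic subunits, the flavoprotein Sdha and the iron-sulfur protein Sdhb, had smaller differences of 0.039 (95% interval -0.23 to 0.31) and 0.026 (-0.27 to 0.32). This order depended on the probe set: the other one differed by 0.17 for Sdhc and 0.045 for Sdhd, and the 3 others of Sdha by 0.021 to 0.15. Of the 4 assembly factors that the rule also matched, 3 had a difference above 0, from 0.018 (Sdhaf4) to 0.29 (Sdhaf3), and Sdhaf2, which helps to attach the flavin to Sdha, had -0.16 (SE 0.10, limma adjusted p = 0.828).

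Complex III had the largest median difference of the complexes with more than 1 gene, 0.23, with the means per mouse overlapping between groups. All 9 of its genes lay above 0, where 66.8% of all genes did. Past the unadjusted threshold was 1 of them, higher in BTWT (11.1%, against 2.35% of all genes). Uqcrfs1, the Rieske iron-sulfur protein that takes electrons from ubiquinol, read 0.16, 0.074, -0.025 and 0.049 in BTWT mice 1 to 4 and 0.025, -0.17, -0.24 and -0.29 in BTDMAFF mice 1 to 4. BTWT 1, 2 and 4 lay above every BTDMAFF mouse and BTWT 3 fell just below BTDMAFF 1. The difference was 0.23 (SE 0.075, limma adjusted p = 0.779), a 1.18-fold difference, past the unadjusted threshold in all 8 fits that left out 1 array but not without both arrays that stood apart. The core proteins Uqcrc1 and Uqcrc2 had differences of 0.24 (SE 0.19) and 0.25 (SE 0.14). Cyc1, cytochrome c1, which hands the electrons to cytochrome c, read 0.34, -0.18, 0.29 and 0.057 in BTWT mice 1 to 4 and 0.29, -0.057, -0.34 and -0.32 in BTDMAFF mice 1 to 4. BTWT 1 and 3 and BTDMAFF 1 were its 3 highest mice, so that the groups overlapped around a difference of 0.24 (SE 0.18). The small subunit Uqcr11 had 0.23 (SE 0.16), and the lowest of the 9 was Uqcrb, which helps to form the ubiquinone site, with 0.061 (SE 0.13).

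Cycs, cytochrome c itself, carries electrons from complex III to complex IV and, once released from mitochondria, takes part in apoptosis. Its probe set of largest SD read -0.063, 0.85, -0.16 and 0.063 in BTWT mice 1 to 4 and -0.31, 0.091, -0.25 and 0.48 in BTDMAFF mice 1 to 4. The high values are those of the 2 arrays that stood apart, 1 in each group, and the difference was 0.17 (95% interval -0.47 to 0.81). Of its 3 other probe sets, 2 had a difference of the same sign and 1 did not (-0.15, where BTDMAFF 3 alone stood at 0.67).

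Complex IV, cytochrome c oxidase, had 18 of 19 genes above 0 (94.7%, against 66.8% of all genes) and a median of 0.11. Its mean was 0.18, 0.060, 0.093 and -0.016 in BTWT mice 1 to 4 and -0.0097, -0.041, -0.16 and -0.060 in BTDMAFF mice 1 to 4, so that BTWT 4 and BTDMAFF 1 just overlapped, and the group means were 0.080 ± 0.083 (SD, n = 4 mice) and -0.069 ± 0.067 (SD, n = 4 mice). The 10 subunits found in most tissues had a median of 0.15, with 2 higher at the unadjusted threshold (20%, against 2.35% of all genes). Cox6a1, the non-muscle form of subunit 6a, read 0.14, 0.18, 0.0038 and 0.075 in BTWT mice 1 to 4 and -0.0083, -0.050, -0.18 and -0.0038 in BTDMAFF mice 1 to 4. The groups were separated, although BTWT 3 and BTDMAFF 4 nearly touched, and the difference was 0.16 (SE 0.056, limma adjusted p = 0.828), a 1.12-fold difference. It was past the unadjusted threshold in 6 of the 8 fits that left out 1 array, but not without BTWT 1, without BTWT 2 or without both arrays that stood apart. The other probe set of the gene had a difference of 0.082 and did not pass that threshold. Cox4i1, the common form of subunit 4, read 0.10, 0.051, 0.013 and -0.013 in BTWT mice 1 to 4 and 0.019, -0.074, -0.17 and -0.12 in BTDMAFF mice 1 to 4. BTWT 3 and 4 lay below BTDMAFF 1, and the difference of 0.12 (SE 0.047, limma adjusted p = 0.828) was past the unadjusted threshold in 2 of the 8 fits that left out 1 array (those without BTWT 4 or BTDMAFF 1) and not without both arrays that stood apart. Cox7c, a small membrane subunit, had the largest difference of all members, 0.97, with values of 1.21, 0.68, -0.0044 and -0.38 in BTWT mice 1 to 4 and -1.32, 0.15, -1.21 and 0.0044 in BTDMAFF mice 1 to 4. Its mice were spread widely in both groups, so the SE was 0.49 and limma gave an adjusted p of 0.828. Its other probe set had the same sign, with a difference of 0.14.

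Isoforms are known to replace common subunits of complex IV in other tissues or conditions, and most of them varied little between mice. Of 8 such genes, 6 had an SD under 0.05 over the 8 arrays: Cox4i2 (lung and hypoxia), Cox6a2 and Cox8b (heart and skeletal muscle), Cox7b2 and Cox8c (testis), and Ndufa4l2, a hypoxia-induced relative of Ndufa4. Their differences lay between 0.0065 and 0.023, while 4907 of all 18193 genes had an SD as small. By contrast, the 75 subunits other than these isoforms, Cox7a2l and the assembly factors had SDs from 0.089 to 0.91. Cox6b2, known from testis, had an SD of 0.44 and a difference of 0.0078 (SE 0.31). Cox7a1, known from heart and muscle, read 0.55, -0.0059, 0.32 and 0.0059 in BTWT mice 1 to 4 and 0.35, -0.044, -0.43 and -0.33 in BTDMAFF mice 1 to 4, with a difference of 0.33 (SE 0.20). Cox7a2, its common counterpart, had 0.14 (SE 0.13), and Cox7a2l, which links complexes III and IV in supercomplexes, had 0.16 (SE 0.16). For Ndufa4, now counted as a complex IV subunit, the difference was 0.35 (SE 0.20), and for Cox8a 0.15 (SE 0.11).

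The ATP synthase had 16 of 17 genes above 0 (94.1%, against 66.8% of all genes) and a median of 0.11. In it, 1 gene was higher at the unadjusted threshold (5.88%, against 2.35% of all genes). This was Atp5o, which encodes the protein that joins the peripheral stalk to the F1 head. It read 0.20, 0.12, 0.036 and 0.061 in BTWT mice 1 to 4 and -0.081, -0.12, -0.24 and -0.036 in BTDMAFF mice 1 to 4. Every BTWT mouse lay above 0 and every BTDMAFF mouse below it. The difference was 0.22 (SE 0.055, 95% interval 0.093 to 0.35, limma adjusted p = 0.528), a 1.17-fold difference. The other probe set of the gene gave a smaller difference of 0.14, was not past the unadjusted threshold, and overlapped between groups, with BTDMAFF 1 (0.15) above 3 of the BTWT mice. For the probe set used, the unadjusted threshold was passed in all 8 fits that left out 1 array and in the fit without both arrays that stood apart. The F1 subunits lay between 0.052 (Atp5d) and 0.31 (Atp5c1, SE 0.43), with 0.11 (SE 0.10) for Atp5b, the catalytic beta subunit, and 0.093 (SE 0.10) for its partner Atp5a1. Atp5c1 stood at -0.94 in BTWT 2 and -1.52 in BTDMAFF 4, and its other probe set differed by 0.044. Atp5e, the epsilon subunit, had 0.16 (SE 0.094, limma adjusted p = 0.828), and Atp5md, a small membrane subunit, 0.10 (SE 0.061, limma adjusted p = 0.828). The 3 genes Atp5g1, Atp5g2 and Atp5g3 encode the same mature ring subunit c with different import sequences. Their differences were 0.24 (SE 0.18), -0.070 (SE 0.32) and 0.079 (SE 0.086). Atp5g2 was the 1 ATP synthase gene below 0, its value in BTDMAFF 4 was 1.19 while the other 3 BTDMAFF mice were below 0, and both other probe sets of the gene differed in the other direction.

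**Figure D3:**
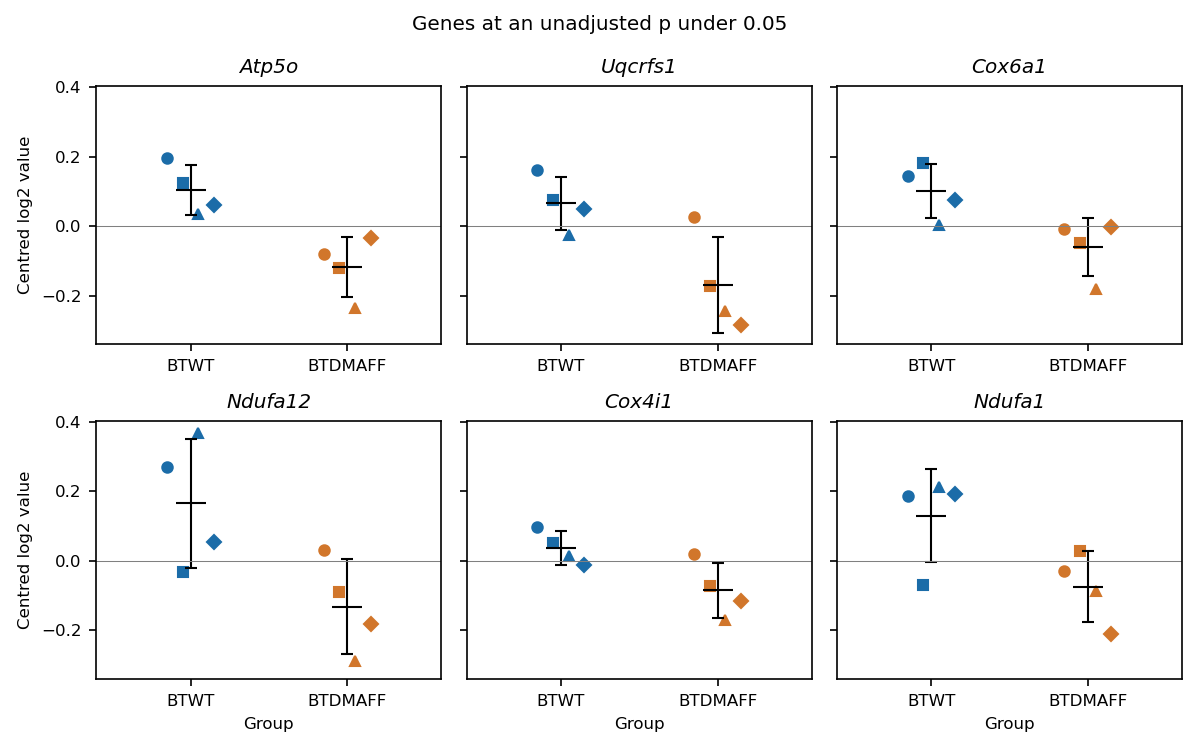
Centred log2 values of the 6 genes higher in BTWT at an unadjusted p under 0.05 by limma, in order of p, for each mouse (circle, square, triangle and diamond for mice 1 to 4) with group mean and SD bars (n = 4 mice). In Atp5o and Cox6a1 all BTWT mice lie above all BTDMAFF mice, and in the other 4 genes the groups overlap.

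Several probe sets stand for 52 of the 88 genes. In 44 of them the other probe sets all had the sign of the one used, and in 8 (Ndufb2, Ndufab1, Ndufs4, Ndufb7, Uqcrq, Cycs, Cox5b and Atp5g2) at least 1 did not. How far they can part is shown by members that stood high where most were low. Above 0.1 in both arrays that stood apart were 5 genes, Cox5a, Cox6c, Cycs, Ndufs4 and Uqcrb, picked out after their values were seen. For Cox6c, the probe set used read 0.24 in BTWT 2 and 0.28 in BTDMAFF 4, and the other probe set of the gene -0.17 in BTWT 2 and -0.22 in BTDMAFF 4. Uqcrb showed the same contrast, with 0.30 in BTWT 2 and 0.20 in BTDMAFF 4 against -0.042 in BTWT 2 and -0.15 in BTDMAFF 4. For Cox5a, 1 of the 2 other probe sets followed the one used and the other read -0.11 in BTWT 2 and -0.24 in BTDMAFF 4. Probe sets of 1 gene thus gave opposite readings in these 2 mice, and which of them follows the transcript cannot be told from centred values.

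**Figure D4:**
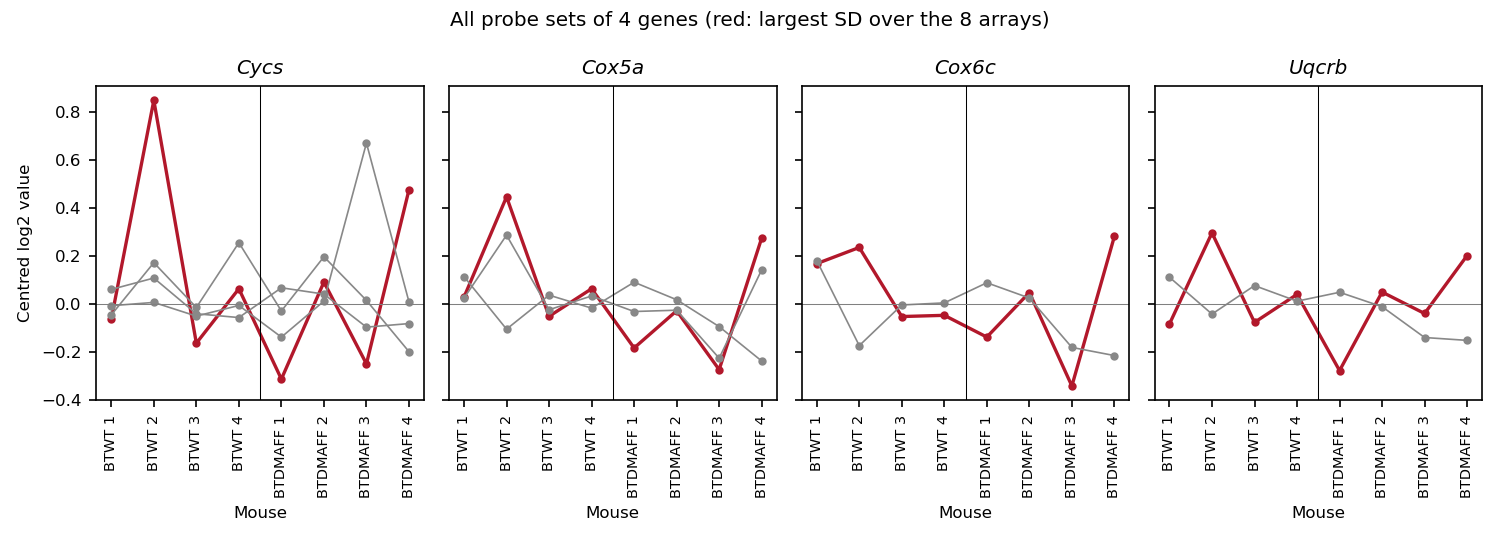
Centred log2 values of every probe set of Cycs, Cox5a, Cox6c and Uqcrb in the 8 mice, the probe set of largest SD in red and the others in grey. The red lines peak in BTWT 2 and BTDMAFF 4, where at least 1 grey line of each gene lies near or below 0.

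Genes around the respiratory chain were taken from lists chosen with earlier results of these data known. The TCA cycle and pyruvate dehydrogenase feed electrons to the chain. Of their 23 measured genes, 14 had a difference above 0 (60.9%, against 66.8% of all genes), with a median of 0.15. At the unadjusted threshold 2 were higher (8.70%, against 2.35% of all genes) and 0 lower (3.37% of all genes). They were Dlat, a pyruvate dehydrogenase subunit, with 1.03 (SE 0.42, limma adjusted p = 0.828), and Pdk4, the kinase that switches that enzyme off, with 0.82 (SE 0.34, limma adjusted p = 0.828). The 76 genes of the mitochondrial ribosome, which makes the subunits encoded in mitochondrial DNA, had a median of 0.16, with 64 above 0, 2 higher (Mrpl13, 0.51, and Mrpl37, 0.34) and 0 lower. The share called higher, 2.63%, was near that of all genes, 2.35%, and the share above 0 was 84.2%, against 66.8%. Their mean was 0.33, -0.32, 0.23 and 0.035 in BTWT mice 1 to 4 and 0.30, -0.12, -0.15 and -0.41 in BTDMAFF mice 1 to 4. BTWT 2 and BTDMAFF 4 were thus again low and BTWT 1 and BTDMAFF 1 high, and in 57 of the 76 genes (75.0%) both arrays that stood apart were below 0. Of the genes of mitochondrial DNA 1 was measured, the complex I subunit ND5, which stood at 0.51 in BTWT 2 and 0.51 in BTDMAFF 4 and differed by -0.023 (SE 0.17) between groups.

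Of 45 measured assembly factors of the chain and the synthase, 26 had a difference above 0 (57.8%, against 66.8% of all genes), with a median of 0.033. Called at the unadjusted threshold were 0 higher (2.35% of all genes) and 2 lower (3.37% of all genes). These were Cox20 (-0.92, limma adjusted p = 0.508) and Ttc19 (-1.02, limma adjusted p = 0.790), which serve complexes IV and III, and each has a probe set of the other sign. In 2 of the 45 genes every BTWT mouse lay below every BTDMAFF mouse (1.84% of all genes), and in 0 above (1.30%). Among 20 genes of mitochondrial biogenesis and mitochondrial DNA upkeep, 9 had a difference above 0 (45%, against 66.8% of all genes), with a median of -0.017. In this list 1 was higher (5%, against 2.35% of all genes) and 0 lower. It was Ppargc1a, the coactivator PGC-1alpha, which is known to drive expression of respiratory chain genes. Ppargc1a read 0.027, 0.21, 0.30 and 0.21 in BTWT mice 1 to 4 and -0.84, -0.92, -0.56 and -0.027 in BTDMAFF mice 1 to 4. All BTWT mice lay above all BTDMAFF mice, and the difference was 0.77 (SE 0.20, limma adjusted p = 0.550), with the same sign in all 4 of its other probe sets. Esrra, a nuclear receptor that works with this coactivator, had 0.39 (SE 0.21, limma adjusted p = 0.828), with its other probe set of the opposite sign.

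Of 25 mitochondrial carriers, porins and uncoupling proteins, 15 had a difference above 0 (60%, against 66.8% of all genes), with a median of 0.042. Here 0 were higher and 2 lower, beside the same shares of 2.35% and 3.37% over all genes. They were Coq10b, a ubiquinone-binding protein, with -0.48 (limma adjusted p = 0.820), and the phosphate carrier Slc25a3, with -0.40 (limma adjusted p = 0.828) and another probe set of the opposite sign. In 1 of the 25 genes every BTWT mouse lay below every BTDMAFF mouse (1.84% of all genes), and in 0 above (1.30%). Of 16 glycolytic genes, 9 had a difference above 0 (56.2%), with a median of 0.029, and 2 were higher (12.5%, against 2.35% of all genes) and 0 lower. Hexokinase 2, Hk2, which starts glycolysis, read 0.12, 0.24, 0.30 and 0.13 in BTWT mice 1 to 4 and -0.25, -0.12, -0.25 and -0.37 in BTDMAFF mice 1 to 4. The groups were clearly apart, with a difference of 0.45 (SE 0.064, limma adjusted p = 0.178). The phosphofructokinase gene Pfkp differed by 0.85 (SE 0.14, limma adjusted p = 0.243), also without overlap and with both other probe sets of the same sign. The differences of these 2 genes were larger than that of any member past the unadjusted threshold, and the difference between the lists was not tested.

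**Figure D5:**
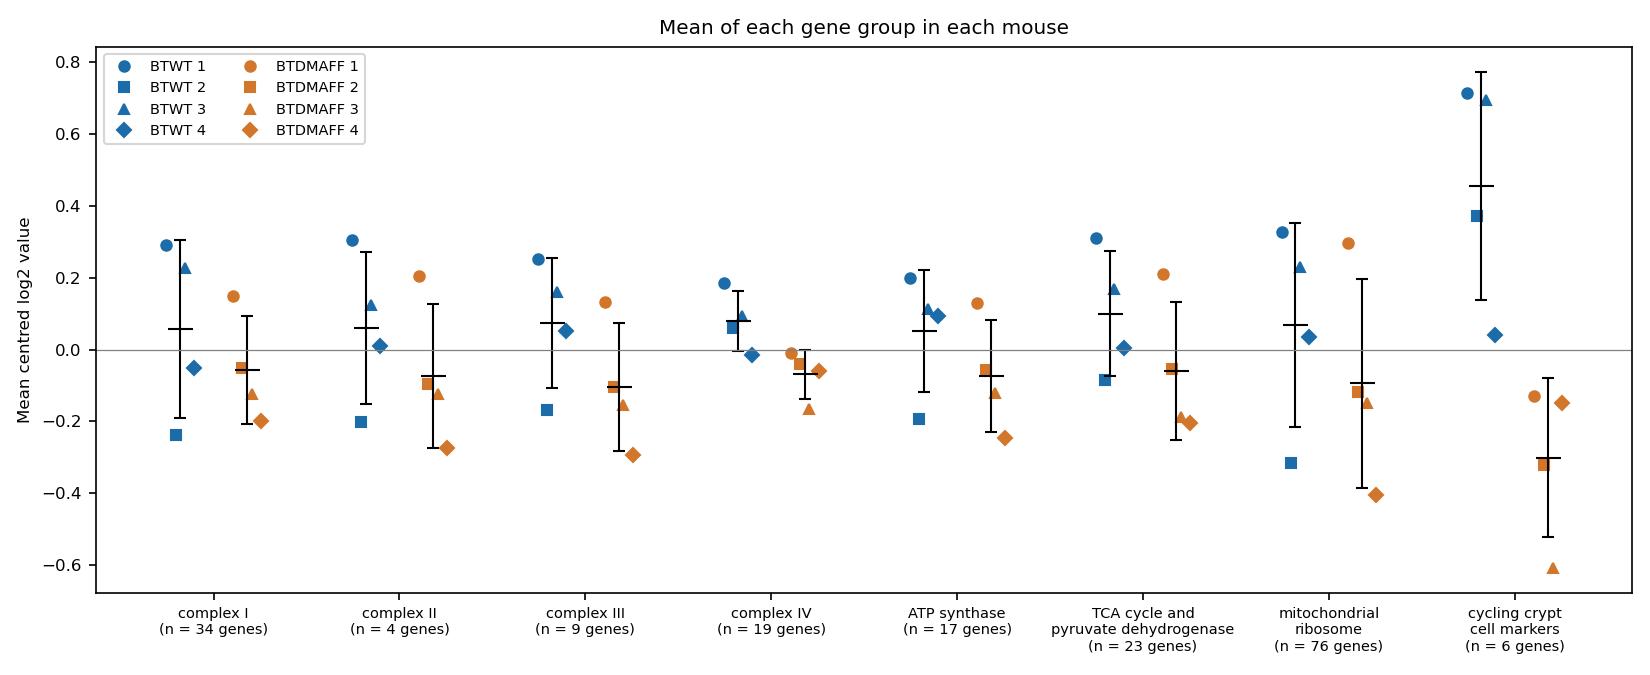
Mean centred log2 value of the genes of each complex, of 2 other mitochondrial gene groups and of markers of cycling crypt cells, 1 point per mouse (circle, square, triangle and diamond for mice 1 to 4) with group mean and SD bars (n = 4 mice). In complexes I to III, the ATP synthase and the mitochondrial ribosome BTWT 2 lies below most BTDMAFF mice, while the lowest BTWT mean of the cycling markers, 0.041, lies above the highest BTDMAFF mean, -0.13.

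Markers of cell classes were read in the same mice. Over all genes, 2.35% were higher and 3.37% lower in BTWT at the unadjusted threshold. In 1.84% of all genes every BTWT mouse lay below every BTDMAFF mouse, and in 1.30% every BTWT mouse lay above. A difference above 0 was found in 66.8% of all genes. Of 6 measured markers of cycling crypt cells, 5 (Aurkb, Birc5, Cdk1, Mki67 and Top2a) were higher at that threshold (83.3%) and 0 lower. All 6 had a difference above 0, and in 4 every BTWT mouse lay above every BTDMAFF mouse. The mean of the 6 was 0.71, 0.37, 0.70 and 0.041 in BTWT mice 1 to 4 and -0.13, -0.32, -0.61 and -0.15 in BTDMAFF mice 1 to 4. Of 9 colonocyte markers, 0 were higher and 2 lower, Krt20 (-0.32) and the chloride and bicarbonate exchanger Slc26a3 (-0.48), and the mean of the 9 ran from -0.12 (BTWT 1) to 0.17 (BTDMAFF 3). Of these 9, 2 had a difference above 0 (22.2%) and 7 below, and in 2 every BTWT mouse lay below every BTDMAFF mouse. Of 7 goblet cell markers, 1 was higher (Agr2) and 2 lower (Clca1 and Fcgbp). Among these 7, 2 had a difference above 0 (28.6%) and 5 below, and in 2 every BTWT mouse lay below every BTDMAFF mouse. Of 5 pan-epithelial markers, 0 were higher and 1 was lower, the brush border protein gene Vil1 (-0.40), whose groups did not overlap. None of 6 stem cell markers passed the threshold in either direction, with a median difference of 0.29, nor did any of 7 leukocyte markers (0.013), 2 erythroid markers (0.016) or 7 markers of stroma and endothelium (-0.36), whose mean was highest in BTDMAFF 2 at 0.99. The part of these markers in the differences of the respiratory chain genes was not tested.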

How the data were processed

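Gene expression was measured on 8 Affymetrix arrays, 1 per mouse, in 4 BTWT and 4 BTDMAFF mice. The authors deposited log2 values centred on the median of the 8 arrays for each of 45101 probe sets. The submitters' processing notes list Affymetrix Expression Console. How background was corrected and arrays were normalized was not stated in the sources, and such steps can shift all genes of an array together. Groups came from the sample titles. The 64 control probe sets were left out, and 45037 were fitted with limma 3.58.1 (R 4.3.3; lmFit and eBayes, BTWT minus BTDMAFF, no covariate), with Benjamini-Hochberg adjustment over all of them. The procedure was tested on simulated data. Genes were named from the array annotation: 34945 probe sets had 1 gene, 932 had several and 9160 had none listed. The members, the marker and pathway lists and the tests were chosen with earlier results of these data known. Named were all genes of complex II, Cycs, Cyc1 and the core of complex I, members at an unadjusted p under 0.05, filled up to the 3 of smallest p per complex where fewer passed, isoform sets, and the 2 genes of smallest p per list. The titles number mice within a group, and p-values measure the spread between these mice. The number of arrays limits the precision. Alternatives were another normalization, weighting, prior, test, filter or probe set, the replicate number as a block, and leaving out arrays. Using only subunits and cytochrome c was an alternative chosen after seeing the data.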

Additional observations from a re-analysis of the deposited data

Results flagged for a closer look

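In 7 of 96 groups of 4 mice tested, 1 mouse lay far from the other 3 by Dixon's ratio, where chance flags about 1 in 20 such groups. The 96 cover the named members and the means of the member lists, which share the same arrays and are not independent. All 7 were groups of a single gene, none of a mean. In BTWT 2 these were Sdhb (-0.34), Ndufa1 (-0.069), Cox6a2 (0.058) and Cox8b (0.066). The others were Sdhd in BTWT 1 (0.39), Cox8a in BTDMAFF 1 (-0.28) and Atp5g2 in BTDMAFF 4 (1.19). BTWT 2 and BTDMAFF 4, the arrays that stood apart on the first principal component, hold 5 of the 7.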

How the results depend on the processing

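No member passed the adjusted threshold of 0.05 in limma or under any alternative run, and the median difference of the members stayed above 0 throughout, from 0.076 (without BTDMAFF 4) to 0.20 (without BTWT 2). The count of members higher in BTWT at the unadjusted threshold, 6, was 24 with array weights, which weighted BTWT 3 and BTDMAFF 2 most, 1 (Cox7c) of 75 members left when probe sets in the lower part of the SD range were dropped, and 2 to 16 when each array was left out. The count lower in BTWT, 0, was 1 with array weights (Sdhaf2) and 1 with probe sets without a suffix (Uqcrq). The cause of these changes was not tested. With the replicate number as a block the count was 8. The titles do not say whether mice of the same number belong together. With the group means taken off, same-numbered arrays correlated at 0.39, -0.040, 0.033 and -0.27 for numbers 1 to 4. Of the 4 BTWT arrays, 1 correlated best with its own number. With 4 arrays per group these correlations cannot decide whether the numbers pair the mice. The count was 4 when each array was centred on its median, 5 after quantile normalization and 6 over the 75 subunits and cytochrome c alone, an alternative chosen after seeing the data. All 6 genes past the unadjusted threshold kept the sign of their difference in every alternative run for them, while 10 of 36 named members changed sign in at least 1 of 19. Centred values show no signal over background, so how far each gene was detected is unknown.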
